A study of Danio rerio with 6 samples.

Results

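The genes described here encode the folding, modifying and exporting machinery of the endoplasmic reticulum (ER), with an emphasis on collagen secretion, together with the stress sensors of that compartment. They were chosen by name from a list of 54 zebrafish genes, matched to the gene symbols of the table ignoring case and with or without the a or b letter of a zebrafish paralog. Of the 54 names, 47 were matched, giving 49 of the 14211 gene IDs measured. The 7 names hspa5, pdia3, p4hb, calr3b, atf4a, ssr1 and sec23a were not matched and are not analysed here. Symbols are printed as the table gives them, often in the human form. The members comprise 15 general ER chaperones, 15 collagen-modifying enzymes and collagen chaperones, 6 stress sensors and transcription factors, 9 genes of protein translocation and 4 of ER exit and retrieval.

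All fish were adults of the AB strain whose heart had been cryoinjured, that is, frozen locally. One group received RO, an inhibitor of gamma secretase, the protease that releases the intracellular domain of Notch receptors, and the other received the DMSO carrier. Injections were peritoneal, at 24 h and again at 48 h from injury, and the apex of the ventricle was taken at 72 h. Each library pools the apices of 3 hearts, with 3 libraries per group, numbered 1, 2 and 3 for DMSO and 2, 3 and 4 for RO. The comparison holds no uninjured heart, no dose of RO is stated in the labels, and the p-values measure the spread between these pools.

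Collagen chains enter the ER through the Sec61 channel, are hydroxylated on proline and lysine, fold into a triple helix with the help of prolyl isomerases and the collagen chaperone Hsp47, and leave in vesicles coated by COPII. General chaperones such as Grp94 and the calnexin cycle fold most other secreted proteins. When unfolded protein builds up, sensors in the ER membrane activate the transcription factors XBP1, ATF4 and ATF6, which raise chaperone genes. In the injured zebrafish heart, collagen is made mainly by fibroblasts and other cells of the wound, and is removed again as the muscle regenerates.

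Reads assigned to the table's genes numbered between 3306018 and 4463303 per library, so 1 read was worth a scaled value of 0.219 to 0.298. In pooled tissue, fewer cells of a type and less RNA per cell cannot be told apart. Fibroblast markers summed to 7855 to 9700 in the DMSO libraries and 6170 to 7806 in the RO libraries over 11 measured genes, none at 0. Without the 3 IDs of type I collagen, the other 8 summed to 2553 to 3520 in DMSO and 2732 to 3093 in RO, and the groups overlapped. Most of that sum came from the 2 IDs of FN1, at log2 fold changes of -0.077 and -0.082. Of the 11 markers, 9 lay below 0 and 2 above, with a median log2 fold change of -0.48, and none passed. Among those below 0 were SPARC at -0.48 (adjusted p = 0.113 in limma), PDGFRA at -0.59 (0.348) and LUM at -0.60 (0.252). The 2 above 0 were DCN at 0.035 and POSTN at 0.54 (0.496). POSTN stood at 33.8, 39.5 and 33.0 in DMSO replicates 1, 2 and 3 and 62.6, 79.7 and 27.5 in RO replicates 2, 3 and 4. Without RO replicate 4, POSTN passed (adjusted p = 0.0278 in limma). Thrombocyte markers, 5 genes, summed to 141 to 175 in DMSO and 185 to 312 in RO, without overlap. Sums for 12 macrophage genes were 566 to 861 in DMSO and 822 to 1063 in RO. Those of 7 heart muscle genes were 29156 to 34563 and 27731 to 30848. The groups overlapped in both. The groups also overlapped for epicardium (7 genes, 1780.0 to 2044 and 1803 to 2159), endothelium (9 genes, 672 to 738 and 702 to 796), erythrocytes (4 genes, 673 to 1391 and 622 to 1525) and the liver gene tfa (91.1 to 174 and 88.0 to 167). Single genes can differ under such sums. Of the endothelial genes 5 lay below 0 and 4 above. Among the latter, flt1 (log2 fold change 0.80, adjusted p = 0.0356 in limma) and plvapb (0.75, 0.0302) passed. Of the epicardial genes 5 lay below 0, with wt1b at -0.84 (0.0723), and 2 above. Of the heart muscle genes 5 lay below 0, where myh7ba passed (-0.66, 0.0255), and 2 above. Above 0 lay 4 thrombocyte genes, with 1 below (median log2 fold change 0.72), and 10 macrophage genes, with 2 below (0.30). None of these thrombocyte and macrophage genes passed with all libraries, and the thrombocyte gene THBS1 did without RO replicate 4 (adjusted p = 0.0409 in limma). The part of these cell types in the results below was not tested.

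One of the 49 members passed the threshold, an adjusted p of 0.05 over all genes from limma, and it was lower in RO. Of all genes, 1.03% passed (0.387% of all genes lower and 0.647% higher). Groups did not overlap for 9 members, 6 lower and 3 higher in RO, which is 18.4% of the members against 18.7% of all genes (9.35% lower and 9.32% higher). At an unadjusted p below 0.05 there were 4 lower and 2 higher members, against 6.61% and 6.79% of all genes. These shares lie near the background. The median log2 fold change of the 49 was -0.046, against -0.010 over all genes, with extremes of -1.03 for fkbp11 and 0.39 for atf4b. Below 0 lay 63.3% of the members and 51.6% of all genes.

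**Figure D1:**
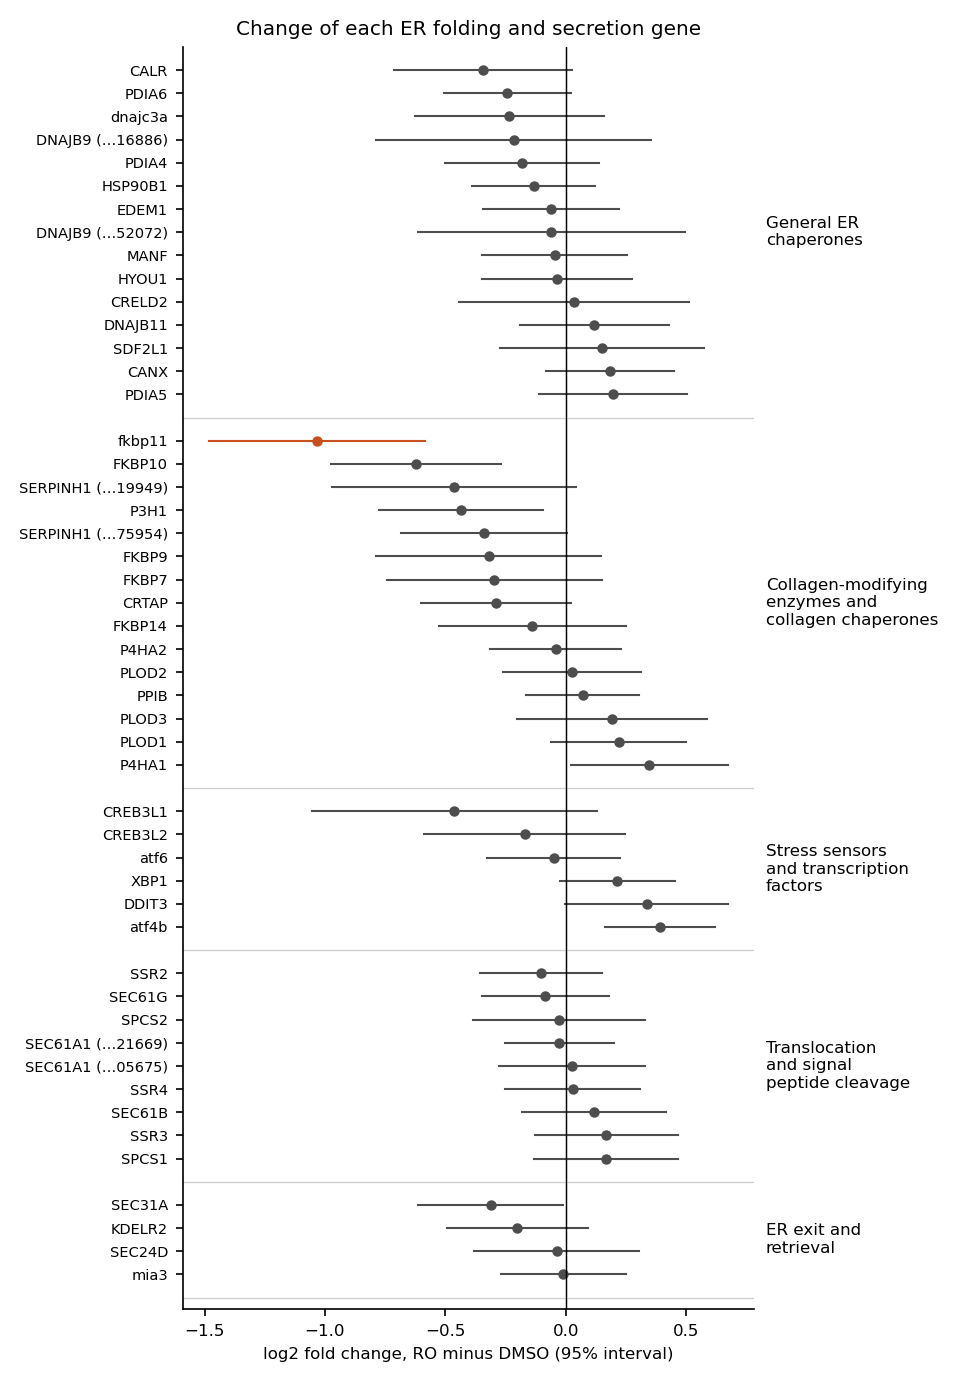
Log2 fold change (RO minus DMSO, x axis) of each of the 49 members (rows) with its 95% interval from limma, grouped by class; orange marks the 1 member with an adjusted p below 0.05, and dotted endings give the last digits of the gene ID where a symbol stands for more than 1. Most intervals span 0, fkbp11 lies farthest left at -1.03 and P4HA1 and atf4b lie on the right at 0.35 and 0.39.

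Among collagen-modifying enzymes and chaperones, the prolyl isomerase gene fkbp11 fell, with every RO library below every DMSO library, and no other member passed. Of the 15 measured, 10 lay below 0 and 5 above, with a median log2 fold change of -0.29 (-0.041 without RO replicate 4). Groups did not overlap for 3 lower members, fkbp11, FKBP10 and P3H1, and for 1 higher member, PLOD1, together 26.7% of the class against 18.7% of all genes.

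The gene fkbp11 (ENSDARG00000037000) encodes a prolyl isomerase anchored in the ER membrane, which in mammals is abundant in secretory tissues. Its place in the collagen class was assigned by the lists used here, and an action on collagen was not tested. Its scaled values were 14.3, 13.4 and 14.6 in DMSO replicates 1, 2 and 3 and 6.42, 5.47 and 8.27 in RO replicates 2, 3 and 4, the order used for all values below. The highest RO library thus lay well below the lowest DMSO library. It fell 2.05-fold, from 14.1 ± 0.615 to 6.72 ± 1.42 (SD, n = 3 per group), with a log2 fold change of -1.03 (SE 0.20, 95% interval -1.48 to -0.58, adjusted p = 0.0430 in limma). These values rest on 59, 52 and 49 reads in DMSO and 23, 25 and 34 in RO. On the recovered reads, edgeR also called it (quasi-likelihood test, adjusted p = 0.0429), and DESeq2 did not (adjusted p = 0.0537). In limma the call ended with quantile normalization (adjusted p = 0.0534) and without the mean-variance trend (0.120). It also ended when any DMSO library was left out (adjusted p = 0.132, 0.120 and 0.1225 for replicates 1, 2 and 3) and when RO replicate 2 (0.0834) or 3 (0.143) was, and was kept without RO replicate 4 (0.0409). The log2 fold change stayed between -1.18 and -0.91 with each library left out. Plasma cells are rich in this isomerase in mammals. Of 9 marker names of B and plasma cells, only 3 were measured. These, ighm, IRF4 and PRDM1, together summed to 6.97 to 11.9 in DMSO and 7.45 to 9.49 in RO. The part of plasma cells in the fkbp11 values was not tested.

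FKBP10 (ENSDARG00000045129) encodes an isomerase that assists collagen folding and lysyl hydroxylase 2, and its loss causes brittle bones in people. It stood at 39.4, 40.5 and 45.3 in DMSO and 29.3, 30.9 and 21.4 in RO. All RO libraries lay below all DMSO libraries, with RO replicate 4 the lowest. The log2 fold change was -0.62 (SE 0.16, 95% interval -0.98 to -0.27), which did not pass (adjusted p = 0.108 in limma). FKBP9 and FKBP7, further ER isomerases, behaved differently among the RO libraries: FKBP9 stood at 125, 146 and 137 in DMSO and 143, 125 and 71.5 in RO, and FKBP7 at 60.5, 70.2 and 69.1 against 71.5, 59.1 and 37.2. In both, RO replicate 2 lay near the top of the DMSO values and RO replicate 4 far below every other library, for FKBP7 at 0.521 times RO replicate 2. FKBP14, an isomerase that binds collagen type III, was at 16.5, 18.6 and 21.7 in DMSO and 20.1, 16.6 and 14.8 in RO, and its groups overlapped.

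The P3H1, CRTAP and PPIB proteins form the complex that puts a rarer kind of hydroxyl on selected prolines of the collagen chain and assists its folding. P3H1 (ENSDARG00000071212), the enzyme, stood at 37.2, 43.9 and 42.9 in DMSO and 36.3, 30.2 and 25.6 in RO, without overlap (log2 fold change -0.43, SE 0.16, adjusted p = 0.250 in limma). CRTAP, its helper subunit, was at 51.0, 61.2 and 49.4 against 50.6, 42.3 and 39.4, where RO replicate 2 lay among the DMSO libraries. PPIB (ENSDARG00000092798), cyclophilin B, which also serves other clients, did not share this direction: it stood at 368, 419 and 386 in DMSO and 433, 407 and 393 in RO (log2 fold change 0.071, 95% interval -0.16 to 0.31). Whether the differences of the 3 genes differ from each other was not tested.

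The chaperone Hsp47, which binds the folded procollagen triple helix, is encoded by serpinh1a and serpinh1b, and 2 IDs carried the symbol SERPINH1, so which is which is not known here. ENSDARG00000075954 stood at 161, 159 and 168 in DMSO and 169, 118 and 107 in RO (log2 fold change -0.34, adjusted p = 0.385 in limma). ENSDARG00000019949 stood at 49.1, 49.6 and 38.4 in DMSO and 47.2, 33.3 and 22.4 in RO (-0.46, adjusted p = 0.428). Both IDs show the same layout, with RO replicate 2 at the DMSO level and RO replicates 3 and 4 lower. Reads of near-identical copies can be split between the IDs, which leaves single values uncertain.

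Besides P3H1, which lay below 0, the members held 5 hydroxylases of proline and lysine. Of these, 4 had a log2 fold change above 0 and none passed. The hydroxylase genes P3H3 and p4ha1a, measured outside the members, lay below 0 (log2 fold changes -0.42 and -0.23), and neither passed. P4HA1, a catalytic subunit of the prolyl 4-hydroxylase that stabilizes the triple helix, stood at 35.0, 34.8 and 41.7 in DMSO and 50.3, 39.6 and 53.0 in RO (log2 fold change 0.35, 95% interval 0.021 to 0.67, adjusted p = 0.336 in limma). P4HA2, another catalytic subunit, was at 42.3, 42.3 and 38.4 against 41.6, 37.4 and 40.4, with a 95% interval of -0.31 to 0.23. The lysyl hydroxylase gene PLOD1 was at 41.3, 44.6 and 47.6 in DMSO and 57.8, 49.5 and 48.9 in RO, with every RO library above every DMSO library (0.22, adjusted p = 0.506). PLOD2, which acts on the ends of collagen chains, was at 155, 120.3 and 160.5 against 153, 152 and 136, and PLOD3, which also adds glucose to collagen, at 28.2, 21.2 and 33.6 against 34.9, 28.0 and 30.9. Both overlapped between groups.

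**Figure D2:**
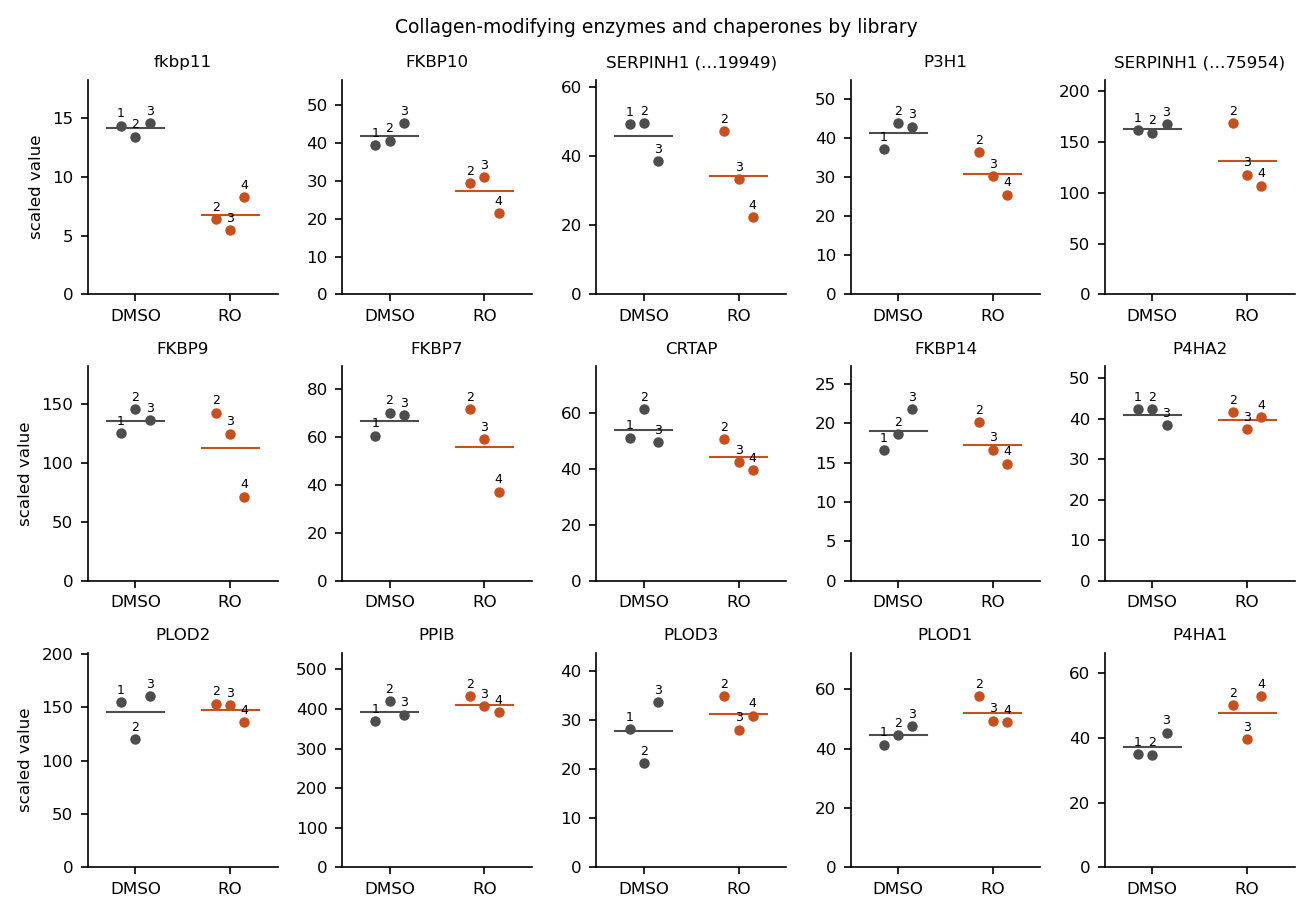
Scaled value (y axis, from 0, with its own range per panel) of the 15 collagen-modifying and chaperone genes in DMSO (grey) and RO (orange) libraries; points are libraries labelled by replicate number and lines are group means. In fkbp11 all RO points lie between 5.47 and 8.27, below all DMSO points, while in FKBP9 and FKBP7 RO replicate 4 lies far below the rest, at 71.5 and 37.2.

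Much of the class median rested on RO replicate 4. Among the 15 genes it was the lowest RO library for 11 (73.3%, against 33.8% of all genes) and the lowest of all 6 libraries for 8 (53.3%, against 15.2%). RO replicate 2 was the highest RO library for 12 (80.0%, against 36.4%). Relative to the mean of the DMSO libraries, the class median was 0.075 in RO replicate 2, -0.17 in RO replicate 3 and -0.44 in RO replicate 4 on the log2 scale, while the DMSO libraries lay between -0.080 and 0.055. In RO replicate 4 the median was also the lowest of the 6 libraries for general chaperones (-0.16), translocation (-0.10) and ER exit (-0.20). For stress sensors it was 0.036. That library was the lowest RO library for 66.7% of general chaperones, 77.8% of translocation genes, 33.3% of stress sensors and 25.0% of ER exit genes. Fibroblast markers summed to 7806, 6619 and 6170 in RO replicates 2, 3 and 4, and to 2962, 2732 and 3093 without type I collagen. Most of the latter sums came from FN1. Relative to the DMSO mean, the median of all fibroblast markers was -0.20, -0.56 and -0.45 in these RO libraries on the log2 scale. In the DMSO libraries it lay between -0.12 and 0.10. Without RO replicate 4 there were again 10 collagen-modifying members below 0 and 5 above. FKBP10 and P3H1 then stood at -0.46 and -0.31, whereas FKBP9 and FKBP7 stood at -0.020 and -0.031.

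**Figure D3:**
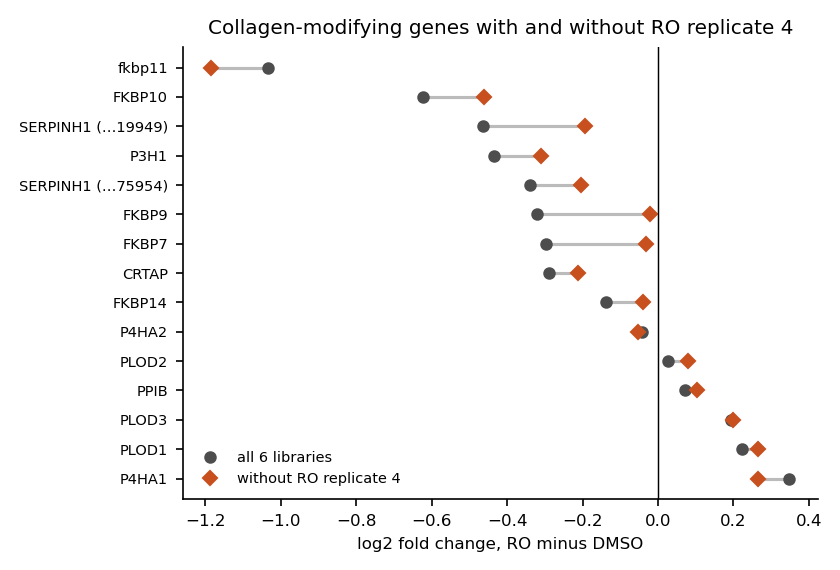
Log2 fold change (RO minus DMSO, x axis) of the 15 collagen-modifying genes with all 6 libraries (grey circles) and without RO replicate 4 (orange diamonds). FKBP9 moved from -0.32 to -0.020 and FKBP7 from -0.30 to -0.031, while fkbp11 went from -1.03 to -1.18.

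Collagen chain genes, the cargo of these enzymes, lay lower in RO. Of 15 measured, 14 lay below 0 with a median log2 fold change of -0.48, and -0.38 without RO replicate 4. Groups did not overlap for 11, all lower (73.3%, against 9.35% of all genes). One passed, the fibrillar collagen gene col11a1b, at 116.7, 93.4 and 123.2 in DMSO and 63.7, 64.4 and 38.2 in RO (log2 fold change -1.03, SE 0.20, adjusted p = 0.0365 in limma). That call ended without DMSO replicates 1 (adjusted p = 0.118 in limma), 2 (0.0850) and 3 (0.116), without RO replicate 3 (0.0680) and without the mean-variance trend (0.180). It was kept in edgeR (adjusted p = 0.0337) and DESeq2 (0.000213), and in limma without RO replicate 2 (0.0415) or 4 (0.0446). COL1A2, a chain of type I collagen picked after its values were seen, stood at 1512, 1409 and 1692 in DMSO and 1235, 1028 and 844 in RO, without overlap (adjusted p = 0.108 in limma, 0.117 in edgeR and 0.0158 in DESeq2). Picked likewise, the COL12A1 IDs ENSDARG00000019601 and ENSDARG00000078322 had log2 fold changes of -0.60 and -0.58. Their adjusted p was 0.0716 and 0.108 in limma, 0.0760 and 0.113 in edgeR, and 0.00864 and 0.0214 in DESeq2. The median of the chains relative to the DMSO mean was -0.28, -0.48 and -0.82 in RO replicates 2, 3 and 4. RO replicate 4 was thus the lowest library for the chains as for the modifying enzymes, but the chains lay below the DMSO libraries in RO replicate 2 as well. Among 13 other genes of collagen modification and processing, 11 lay below 0 with a median of -0.25 (-0.14 without RO replicate 4) and none passed. The smallest p of that list went the other way: loxl2a, a lysyl oxidase relative that crosslinks collagen, stood at 25.8, 15.7 and 22.6 in DMSO and 35.5, 65.3 and 31.6 in RO (log2 fold change 0.98, adjusted p = 0.118 in limma, 0.105 in edgeR and 0.0127 in DESeq2). Of the same family, LOX, LOXL2 (ENSDARG00000044074) and LOXL3 had log2 fold changes of -0.37, -0.25 and -0.092, and LOXL1 of 0.13.

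**Figure D4:**
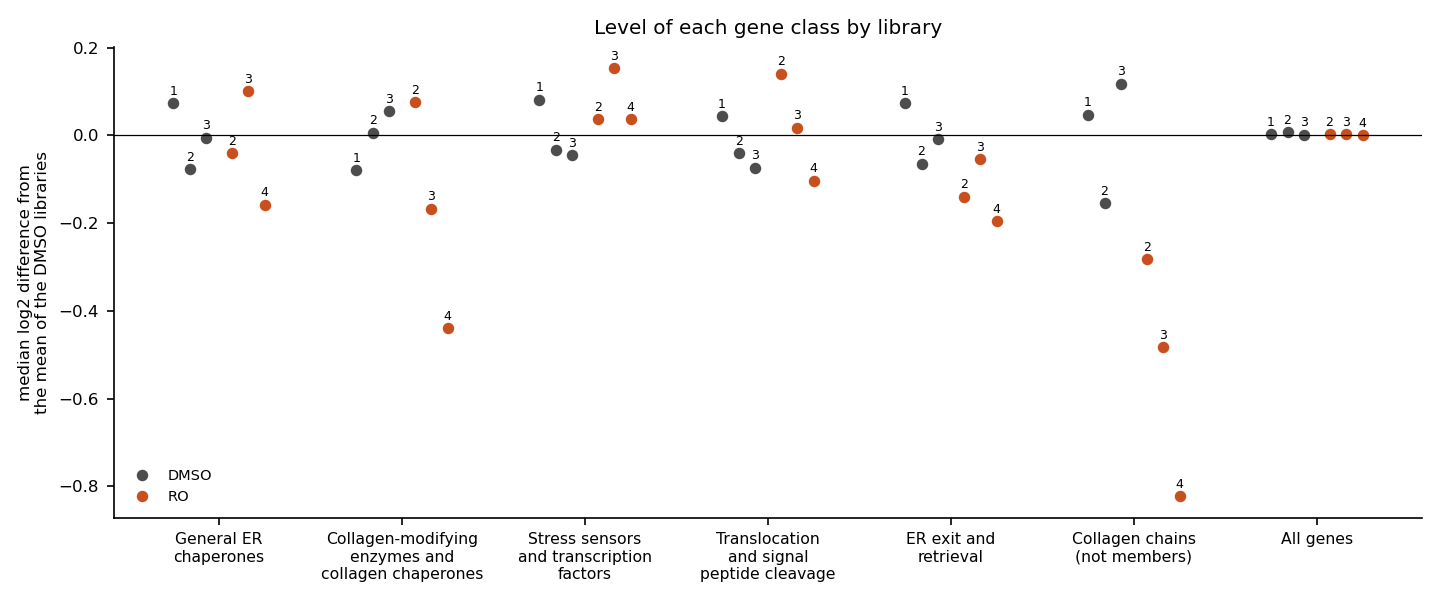
Median over the genes of each class of the log2 difference from the mean of the DMSO libraries (y axis) in every library (points, labelled by replicate number; DMSO grey, RO orange), for the 5 classes, the collagen chains and all genes. RO replicate 4 is lowest for the collagen-modifying class at -0.44 and for the collagen chains at -0.82. It is also lowest for general chaperones (-0.16), translocation (-0.10) and ER exit (-0.20), and all genes stay near 0.

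General ER chaperones lay near their DMSO level, and none of the 15 passed. There were 10 below 0 and 5 above, with a median log2 fold change of -0.060 and a range of -0.34 to 0.20. Groups did not overlap for 2, CALR and PDIA6, both lower in RO, which is 13.3% of the class against 18.7% of all genes. CALR (ENSDARG00000076290), calreticulin, the soluble lectin chaperone, stood at 57.1, 53.2 and 50.3 in DMSO and 46.4, 50.1 and 31.9 in RO. RO replicate 3 and DMSO replicate 3 almost touch, and RO replicate 4 is far lower than the rest (log2 fold change -0.34, adjusted p = 0.417 in limma, and -0.15 without RO replicate 4). PDIA6 (ENSDARG00000009001), a disulfide isomerase, stood at 129.57, 130.3 and 139 against 106, 129.43 and 102 (-0.24, adjusted p = 0.422 in limma). Here DMSO replicate 1 and RO replicate 3 almost touch. CANX (ENSDARG00000037488), the membrane-bound partner of calreticulin, lay in the other direction, at 350.1, 285 and 314 in DMSO and 388, 371 and 321 in RO (0.19, adjusted p = 0.568).

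The Hsp90 of the ER, HSP90B1 (ENSDARG00000003570), was measured tightly in DMSO at 312, 303 and 309 and stood at 271, 323 and 254 in RO. RO replicate 3 lay above the DMSO libraries and the other two RO libraries below, with a log2 fold change of -0.13 (95% interval -0.39 to 0.12). HYOU1, the Grp170 that recharges the chaperone BiP, was at 99.4, 70.5 and 83.1 against 76.0, 89.6 and 79.6. The spread within each group of HYOU1 exceeded the difference between them.

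The J-domain co-chaperones deliver clients to BiP. DNAJB11 stood at 64.7, 46.7 and 52.7 in DMSO and 59.2, 62.9 and 55.0 in RO, and dnajc3a at 28.0, 24.8 and 25.0 against 25.1, 25.0 and 16.8. The symbol DNAJB9 stood for 2 IDs at means of 12.4 and 9.75 in DMSO and 10.9 and 9.64 in RO, and only dnajb9b was named, so paralogs were not told apart. SDF2L1, a partner of DNAJB11, was at 31.4, 21.7 and 19.1 against 29.6, 26.1 and 23.1. None of these 5 IDs separated the groups.

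Disulfide isomerases PDIA4 and PDIA5 were at 93.8 ± 3.50 and 41.6 ± 6.65 in DMSO and 83.7 ± 17.6 and 47.4 ± 1.44 in RO. MANF and CRELD2, secreted ER proteins that ER stress induces in mammals, stood at 47.7 ± 1.21 and 12.9 ± 1.49 in DMSO and 46.5 ± 6.78 and 13.5 ± 3.44 in RO. EDEM1, which marks misfolded glycoproteins for degradation, stood at 43.1 ± 3.76 against 41.2 ± 2.41. All differences in these 5 genes lay within the spread of at least one group.

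Genes of translocation into the ER had the narrowest range of log2 fold changes of the 5 classes, with a median log2 fold change of 0.025 and a range of -0.10 to 0.17 over 9 IDs. None passed, against 1.03% of all genes, and no gene's groups separated, against 18.7% of all genes. The channel gene SEC61A1 was represented by 2 IDs: ENSDARG00000021669 stood at 229.7, 211 and 213 in DMSO and 221, 218 and 202 in RO, and ENSDARG00000005675 at 55.9, 46.2 and 47.0 against 57.0, 50.1 and 44.8. For the former the 95% interval of the log2 fold change ran from -0.25 to 0.20. The small channel subunits SEC61G and SEC61B stood at 215 ± 28.5 and 71.4 ± 7.26 in DMSO and 202 ± 5.22 and 77.8 ± 10.8 in RO.

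The translocon-associated proteins SSR2, SSR3 and SSR4 help certain signal sequences to insert. SSR2 stood at 134, 144 and 120.0 in DMSO and 128, 114 and 128 in RO, and SSR3 at 66.1, 83.9 and 62.2 against 78.8, 83.7 and 74.5. SSR4 was at 127, 110.5 and 116 against 139, 119 and 104. Of the signal peptidase subunits, SPCS1 stood at 42.5, 51.9 and 45.8 against 57.5, 46.0 and 54.5 and SPCS2 at 28.0 ± 4.46 against 27.4 ± 3.78. Groups overlapped in all 5.

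Of the 4 genes of ER exit and retrieval, none passed and all lay below 0, with a median log2 fold change of -0.12. Of all genes 51.6% lay below 0, and of 24 other ER exit and retrieval genes 11 lay below 0 and 13 above. SEC31A (ENSDARG00000021082), the outer coat of COPII vesicles, stood at 29.2, 26.8 and 28.6 in DMSO and 21.2, 24.3 and 22.4 in RO. Its groups did not overlap and each was narrow, but the difference did not pass (log2 fold change -0.31, SE 0.14, adjusted p = 0.352 in limma). SEC24D, an inner coat subunit without which zebrafish cartilage cells retain collagen, was at 41.1, 29.9 and 40.2 against 33.0, 39.6 and 35.0. The gene mia3, whose protein loads bulky procollagen into vesicles, was at 72.4, 74.1 and 64.3 against 64.2, 73.6 and 71.5 (-0.0096, 95% interval -0.27 to 0.25). KDELR2, a receptor that returns escaped chaperones to the ER, was at 77.3, 69.2 and 70.3 in DMSO and 72.1, 63.7 and 53.8 in RO. Outside the members, the related genes kdelr2a and KDELR3 had log2 fold changes of -0.0032 and -0.33.

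Among the 6 stress sensors and transcription factors, atf4b, DDIT3 and XBP1 lay above 0 and CREB3L1, CREB3L2 and atf6 below, and none passed. The median log2 fold change was 0.082. The gene atf4b (ENSDARG00000038141) encodes a paralog of ATF4, the factor made when translation is restrained by eIF2 kinases. It stood at 245, 216 and 236 in DMSO and 308, 293 and 311 in RO. Its groups lay well apart, with a log2 fold change of 0.39 (SE 0.10, 95% interval 0.16 to 0.62), but the adjusted p was 0.118 in limma, 0.133 in edgeR and 0.0843 in DESeq2. The log2 fold change ranged from 0.34 to 0.43 with each library left out.

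XBP1 (ENSDARG00000035622), the factor that IRE1 activates by splicing, stood at 297, 265 and 255 in DMSO and 334, 315 and 298 in RO. The lowest RO library lay just above the highest DMSO library (log2 fold change 0.21, adjusted p = 0.441 in limma), and gene-level values do not separate the spliced from the unspliced form. DDIT3 (ENSDARG00000059836), the CHOP factor of prolonged stress, was at 67.3, 53.7 and 73.8 against 68.7, 92.0 and 85.7, and RO replicate 2 lay within the DMSO range (0.34, adjusted p = 0.374). The ER-bound sensor gene atf6 was at 54.5, 50.6 and 44.1 in DMSO and 48.9, 47.1 and 47.5 in RO (-0.050, 95% interval -0.33 to 0.23). ATF6 is activated by cleavage and ATF4 through translation, neither of which RNA levels report.

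CREB3L1 and CREB3L2 are ER-anchored factors that drive secretory genes, CREB3L1 in mouse bone and creb3l2 in zebrafish cartilage. CREB3L1 stood at 10.9, 12.6 and 11.3 in DMSO and 11.5, 9.64 and 5.11 in RO. RO replicate 2 lay among the DMSO libraries and RO replicate 4 was 0.446 times RO replicate 2, the layout of FKBP9 and FKBP7 (log2 fold change -0.46, and -0.14 without RO replicate 4). CREB3L2 was at 16.8, 15.5 and 15.2 against 10.9, 16.9 and 14.8, where RO replicate 2 was the low library.

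**Figure D5:**
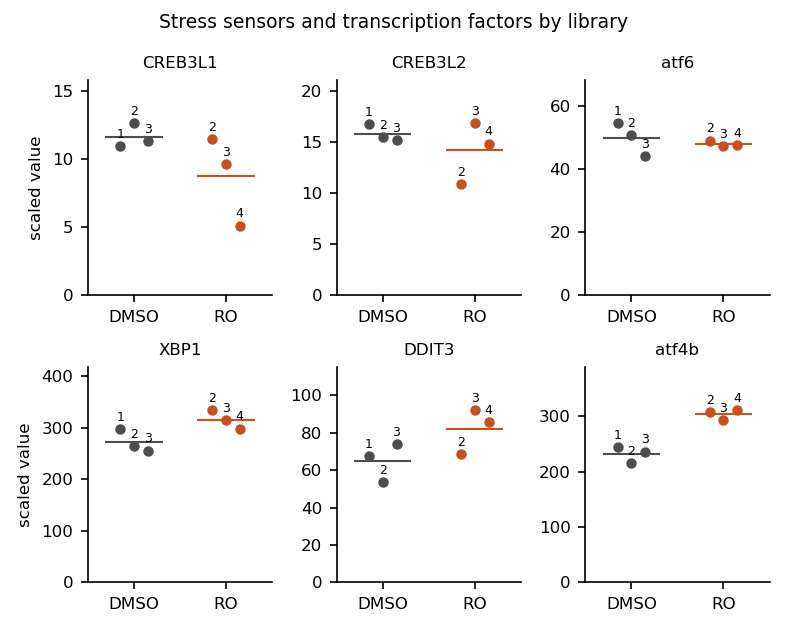
Scaled value (y axis, from 0, with its own range per panel) of the 6 stress sensors and transcription factors in DMSO (grey) and RO (orange) libraries; points are libraries labelled by replicate number and lines are group means. The RO points of atf4b lie between 293 and 311, above the DMSO points at 216 to 245, and in CREB3L1 RO replicate 4 is lowest at 5.11.

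Further genes of the same pathways gave no call in limma with all 6 libraries. None passed of 24 genes of the unfolded protein response and ER-associated degradation, 21 of folding and N-glycosylation, 12 of translocation and 24 of ER exit and retrieval, with median log2 fold changes of 0.023, 0.033, 0.052 and 0.024. The 3 genes with the smallest p over these 4 lists, ATF3, EIF2AK3 and SRPRA, went both ways, and all genes named here were picked after their values were seen. The stress-induced factor gene ATF3 stood at 48.1, 69.9 and 137.5 in DMSO and 187, 160 and 141 in RO, with DMSO replicate 3 almost at the RO level (adjusted p = 0.132 in limma). Its adjusted p was 0.453 in DESeq2. With each library left out in limma, its log2 fold change ranged from 0.72 to 1.47 and its adjusted p from 0.00653 to 0.322. EIF2AK3, which encodes the eIF2 kinase PERK, was at 21.1, 27.1 and 29.2 against 16.5, 17.5 and 17.0 (adjusted p = 0.136). SRPRA, a subunit of the receptor that docks ribosomes at the ER, was at 57.4, 48.0 and 56.0 against 66.2, 81.5 and 73.7 (adjusted p = 0.143). All 3 had groups that did not overlap, which their choice by smallest p makes likely. Over the 4 lists, in the order above, groups did not overlap for 33.3%, 9.52%, 8.33% and 8.33%. The share over all genes was 18.7%. Next in p came SEC23B, a COPII coat gene, with a log2 fold change of 0.46, and SUMF2 at -0.52, and the degradation factor gene HERPUD1 stood at -0.41. CHAC1 and TRIB3, targets of the ATF4 branch in mammals, had log2 fold changes of 0.30 and -0.23. The further stress genes ATF3, ASNS and ppp1r15a stood at 1.06, 0.13 and 0.10, and the members atf4b and DDIT3 at 0.39 and 0.34. Of the 24 genes of the unfolded protein response and ER-associated degradation, 11 lay below 0 and 13 above.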

How the data were processed

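Polyadenylated RNA from 6 pools of ventricle apex was sequenced. The authors deposited 1 table of 14211 gene IDs with a scaled signal per gene and library. Per the submitters' processing notes, the Zv9 build and RSEM 1.2.3, Bowtie2 2.0.6, edgeR, cutadapt 1.6.1 and CASAVA 1.8 were used, in roles that are not listed. Annotation release and strand: not given in the sources used here. Divided by 1 factor per library, 100% of the deposited values were whole reads (within 0.01 read), which the count tests used; edgeR called 156 genes on them.

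Symbols came from a table that pairs 11589 of the IDs with names. Values were taken as log2(value + 0.5) and fitted for RO minus DMSO by limma-trend (limma 3.58.1, R 4.3.3) over all 14211 genes, with Benjamini-Hochberg adjusted p and a threshold of 0.05. No further filter was applied to the table, whose genes all exceed 1 in 3 or more libraries. The code was tested on simulated data. Members and lists were chosen with earlier results of these data known. Named in full were passing members, the 3 smallest p and 2 highest values per class, and a fixed set of sensors. The alternatives were pseudocounts, a minimum value, scalings, limma settings, edgeR 4.0.16, DESeq2 1.42.0, a replicate block and each library left out. No protein, promoter or genome sequence was used here. Libraries of a group differed by 5.01 to 11.7 in chi-square per degree of freedom, so none repeated another.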

Additional observations from a re-analysis of the deposited data

How the results depend on the processing

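The number of members called was 1, and 0 with quantile normalization, without the mean-variance trend and with DESeq2; without each library in turn it ranged from 0 to 1. Over all genes 147 were called, 1 without the trend (1725 at an unadjusted p below 0.05), 227 with DESeq2, and 22 to 105 without 1 library. Of the shared replicate numbers, those marked 2 deviated together by r = 0.116 and those marked 3 by r = 0.0913. Both lay above the r of every DMSO and RO library with unlike numbers, which ran from -0.116 to 0.0433. Whether the numbers mark pairs is not known here. Replicate number 1 occurs only in DMSO and 4 only in RO. A fit with the number as a block therefore takes its difference from replicates 2 and 3 alone. With this block 405 genes and 1 member were called. This fit has nearly as many coefficients as libraries, so its p-values rest mainly on the spread borrowed across genes. Class medians moved to -0.098 for collagen-modifying genes, 0.17 for stress sensors and -0.023 for ER exit genes. The last was -0.037 with names matched exactly. Without 1 library, class medians ranged from -0.39 to -0.041 (collagen-modifying, highest without RO replicate 4), -0.21 to -0.059 (ER exit), -0.14 to -0.017 (general chaperones), 0.018 to 0.15 (stress sensors) and -0.051 to 0.11 (translocation).

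With the block, HYOU1 turned to 0.11, dnajc3a to 0.0090, MANF to 0.10, EDEM1 to 0.025, atf6 to 0.023, SEC61A1 (ENSDARG00000021669) to 0.052, SPCS2 to 0.0048 and SEC24D to 0.058; quantile normalization turned PLOD2 to -0.022, SEC61A1 (ENSDARG00000005675) to -0.0086 and SSR4 to -0.019. With 1 library left out, these members crossed 0: CREB3L2 (-0.30 to 0.0020), CRELD2 (-0.082 to 0.26), DNAJB9 (ENSDARG00000016886, -0.42 to 0.060, and ENSDARG00000052072, -0.30 to 0.17), HYOU1 (-0.16 to 0.091), MANF (-0.11 to 0.080), P4HA2 (-0.088 to 0.0011), PLOD2 (-0.10 to 0.10), SEC24D (-0.18 to 0.044), SEC61A1 (ENSDARG00000005675, -0.063 to 0.11, and ENSDARG00000021669, -0.051 to 0.013), SEC61G (-0.19 to 0.00047), SPCS2 (-0.14 to 0.095), SSR4 (-0.076 to 0.13), atf6 (-0.13 to 0.018) and mia3 (-0.072 to 0.049). The causes were not tested. The other members kept their direction in every alternative run. Members at values near 10, such as DNAJB9 and CREB3L1, rest on few reads.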
